A study of Mus musculus with 2 samples.

Results

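The proteasome genes of mouse blood stem and progenitor cells were described in RNA sequencing data from 2 genotypes. The members were all gene symbols that start with Psm, a letter from a to g and a number, which gave 49 of the 22020 symbols in the table. They comprised 31 constitutive subunits, 3 immunoproteasome subunits (Psmb8, Psmb9 and Psmb10), the thymus subunit Psmb11, the germ cell subunit Psma8, activators, an inhibitor and assembly chaperones. Psmc3ip fitted the name pattern only: it encodes a protein of meiotic recombination and no part of the proteasome. Where a symbol had several transcripts, the one most abundant on average over both libraries stood for it. A mean of 1 RPKM (reads per kilobase of transcript, scaled to library depth) was reached by 48 of the 49 members, which are called measured.

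One library came from Utx/p53 DKO mice, which lack p53 and also Utx, the histone demethylase encoded by Kdm6a. The other came from p53 KO mice, so by the labels the loss of the tumour suppressor p53 was common to both. All mice were C57BL/6 and 8 weeks old, and the RNA came from LSK cells, sorted as lineage-negative cells that carry c-Kit and Sca-1. The labels do not give how or in which cells Kdm6a was deleted, or how many mice gave the RNA of a library. With 1 library per genotype no difference has a replicate check. All values describe these 2 libraries, no test was made, and intervals cover counting error only.

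The proteasome is the main protease of the cytosol and nucleus, and it degrades proteins marked with ubiquitin. Its barrel, the core particle, has outer rings of alpha subunits (Psma genes) and inner rings of beta subunits (Psmb genes), of which Psmb5, Psmb6 and Psmb7 cut proteins. A regulatory particle of ATPases (Psmc genes) and further subunits (Psmd genes) caps the barrel, binds ubiquitin chains and unfolds the protein. In blood cells and under interferon, Psmb8, Psmb9 and Psmb10 replace Psmb5, Psmb6 and Psmb7 in that order and form the immunoproteasome, whose peptides are loaded on class I histocompatibility molecules.

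The DKO library had 19926294 reads and the p53 KO library 17088105 reads, as the table's header gives them. Kdm6a was at 1.26 RPKM in the DKO and 5.32 RPKM in the p53 KO library, in the direction of the labels. Trp53 transcripts were at 12.9 RPKM in the DKO and 19.4 RPKM in the p53 KO library (456 and 587 reads), levels that do not show a deletion. Which exons were removed is not stated, so the loss of p53 rests on the labels alone. Over all 11356 measured genes, the difference of log2(RPKM + 1), DKO minus p53 KO, had a median of -0.24. With the constants the authors' software set for depth, that median was 0.28, so the direction of a small difference depends on the scaling. Of the marker lists, all 11 measured granulocyte and monocyte genes were at least 2-fold higher in the DKO library, with a summed level of 69732 RPKM against 5730 RPKM in the p53 KO library. The LSK markers were at least 2-fold lower in 8 of 10 cases, and their sum was 392 RPKM in the DKO and 942 RPKM in the p53 KO library. Kit of the sort gate was among them, at 16.0 RPKM in the DKO and 64.2 RPKM in the p53 KO library, while Ly6a (Sca-1) was at 281 and 255 RPKM in the same order. T and NK cell markers were at least 2-fold higher in 6 of 8 cases (sums of 95.7 RPKM in the DKO and 32.9 RPKM in the p53 KO library). All 5 measured B cell markers were at least 2-fold lower (47.2 RPKM in the DKO against 248 RPKM in the p53 KO library), as were all 5 measured erythroid markers (88.2 RPKM in the DKO against 719 RPKM in the p53 KO library), and Epor, below 1 RPKM on average, had no read in the DKO library. Dendritic cell and macrophage markers went both ways, with 3 higher and 2 lower of 7 and sums of 316 RPKM in the DKO and 534 RPKM in the p53 KO library. The part of these marker differences in the results below was not tested, and fewer cells of a type cannot be told apart from less RNA per cell.

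As a whole, the proteasome genes differed little between the DKO and the p53 KO library. None of the 48 measured members was at least 2-fold higher on the log2(RPKM + 1) scale, where 6.60% of all genes were, and 1 was at least 2-fold lower, Psma8, where 13.5% of all genes were (20.1% in either direction). The log2 difference was above 0 for 26 of the 48, against 34.8% of all genes. The members' median log2 difference was 0.04, which is 0.27 above the median of all genes, and 34 of the 48 lay above that median, as 50.0% of all genes do by definition. At least 1.5-fold above the all-gene median stood 10 members, against 19.6% of all genes, and at least 1.5-fold below it 2 members, against 19.0%. The 486 other genes that matched the middle range of the members in both level and transcript length had a median of 0.01. Summed over the measured members, the level was 4614 RPKM in the DKO library and 4588 RPKM in the p53 KO library, or 0.985% and 1.27% of all RPKM. With the depth constants of the authors, 9 members were at least 2-fold higher, against 16.5% of all genes, and 44 of 48 lay above 0, against 66.6% of all genes. In the authors' deposited table, the GFOLD value, a fold change moved towards 0 by its counting error, was above 0 for 41 members and below 0 for 4, against 54.5% and 22.9% of all genes.

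**Figure D1:**
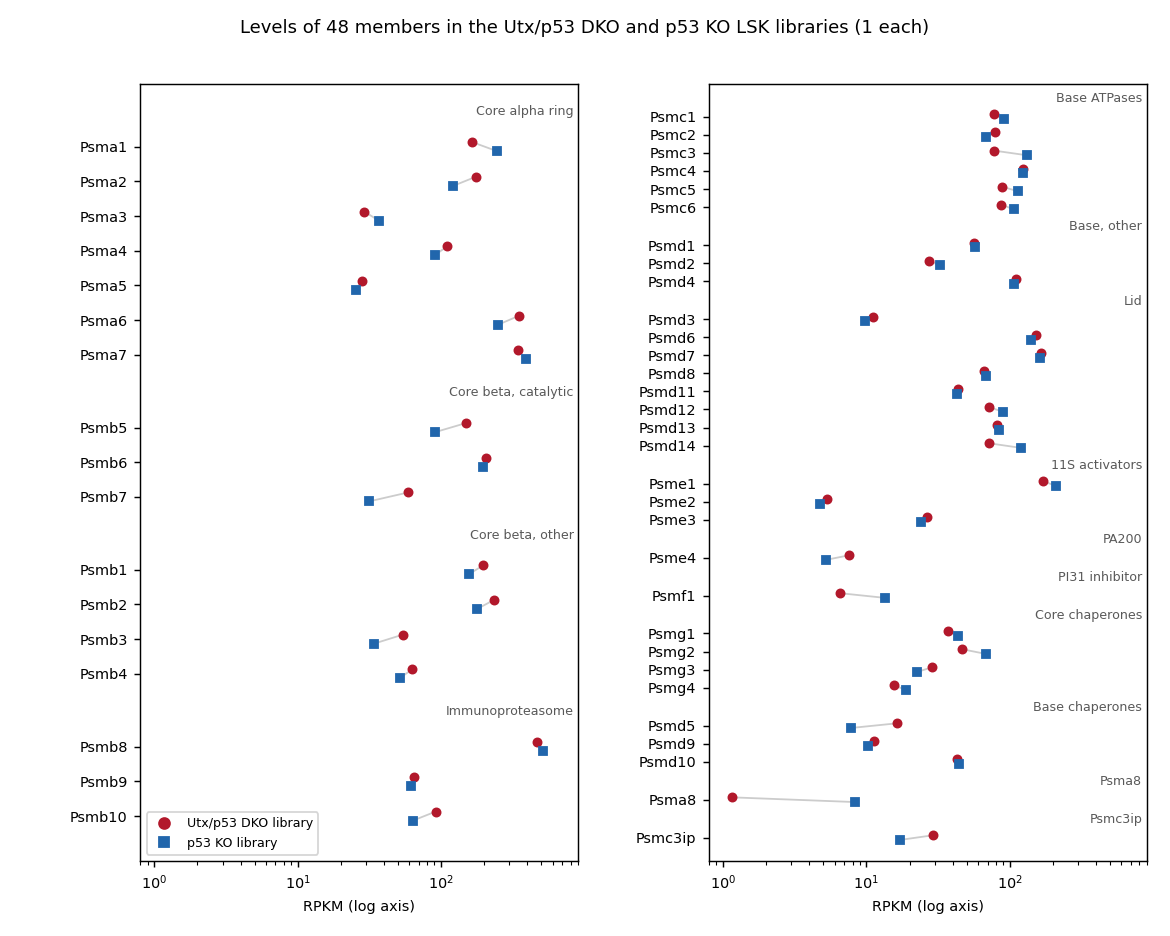
Level of each of the 48 measured members in RPKM (log axis) in the Utx/p53 DKO library (circles) and the p53 KO library (squares), 1 library each, grouped by role. Most pairs lie close together, with Psmb8 the highest in both libraries and Psma8 the pair farthest apart, at 1.16 RPKM in the DKO and 8.26 RPKM in the p53 KO library.

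Levels of the 31 constitutive subunits covered a wide range, although the core and the regulatory particle each hold their own subunits in equal number. They lay between 11.1 and 352 RPKM in the DKO library and between 9.84 and 394 RPKM in the p53 KO library. Psmd3, a lid subunit, was the lowest in both, while Psma6 was the highest in the DKO library and Psma7 in the p53 KO library. Subunit levels went together in the 2 libraries, with a Pearson r of 0.93 for log2(RPKM + 1) over 31 genes. It is given as a description, since the genes share their 2 libraries, and no r over all genes was set beside it. Log2 differences of the 31 subunits had an SD of 0.40, against 0.87 over all genes and 0.89 over other genes of the members' middle level range. By counting error alone, the interval of the RPKM ratio lay above 1 for 12 subunits, below 1 for 10 and held 1 for 9. Of the 11102 measured genes with recovered reads, whose depth differs from that of the subunits, 26.2% had an interval above 1 and 53.5% one below 1.

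The alpha subunits, which form the gate of the barrel, went in both directions. Psma2 was at 174 RPKM in the DKO and 122 RPKM in the p53 KO library, a ratio of 1.43 (95% interval 1.35 to 1.52). Psma6 was at 352 RPKM in the DKO and 251 RPKM in the p53 KO library, with a ratio of 1.40 (95% interval 1.35 to 1.46). Both were higher in the DKO library, by less than 2-fold. Psma1 was lower there, at 165 RPKM against 246 RPKM in the p53 KO library, with a ratio of 0.673 (95% interval 0.646 to 0.701). Psma4 was at 111 and 90.2 RPKM, Psma5 at 28.1 and 25.3 RPKM, Psma3 at 29.2 and 36.7 RPKM and Psma7 at 342 and 394 RPKM, each time with the DKO library first and the p53 KO library second. The 7 alpha genes had a median log2 difference of 0.14, and 4 of them lay above 0. RefSeq lists a pseudogene of Psma5, so its reads are uncertain.

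Psma8, a germ cell relative of Psma7 that is used in the testis, was the member farthest from equal. It was at 1.16 RPKM (39 reads) in the DKO library and 8.26 RPKM (239 reads) in the p53 KO library. The ratio of 0.140 (95% interval 0.0971 to 0.197) made it 7.15-fold lower in the DKO library, and its log2 difference of -2.10 kept its sign under every scaling tried. Relative to Psma7 of the same library, it was at 0.00338 in the DKO and 0.0209 in the p53 KO library, so it was a minor transcript in both. Its sequence resembles that of Psma7, so a share of its reads may belong to that gene.

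All 7 constitutive beta genes had a log2 difference above 0 as deposited, against 34.8% of all genes. Of the 1654 other genes in the length range of the core subunits, 869 did. With RPKM scaled to equal sums 4 of the 7 lay above 0, where the all-gene median was -0.55. Among the genes of the cutting subunits, Psmb7 was at 58.9 RPKM in the DKO and 31.3 RPKM in the p53 KO library, a ratio of 1.88 (95% interval 1.69 to 2.09). Psmb5 was at 149 RPKM in the DKO and 91.2 RPKM in the p53 KO library, a ratio of 1.63 (95% interval 1.53 to 1.75). Psmb6 was close to equal, at 207 RPKM in the DKO and 196 RPKM in the p53 KO library, a ratio of 1.05. The other beta genes, whose products hold the ring together, had ratios between 1.22 and 1.59. Of these, Psmb3 was at 54.1 RPKM in the DKO and 34.0 RPKM in the p53 KO library, Psmb2 at 234 and 178 RPKM, Psmb1 at 197 and 156 RPKM and Psmb4 at 62.8 and 51.4 RPKM in the same order. RefSeq lists pseudogenes of Psmb5, Psmb6 and Psmb7, and the sources used here do not say how reads that match several genes were treated.

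The regulatory particle lay lower than the core particle. Its 17 subunits with Psm names had a median log2 difference of -0.05 with 6 above 0, against 0.31 with 11 of 14 above 0 for the constitutive core subunits. Shfm1 and Adrm1, which encode regulatory particle subunits under other names, are not among the 17 and are given below. The core median was therefore 0.36 above that of the regulatory particle, a distance to which the scaling between libraries adds nothing beyond the pseudocount. Core transcripts were shorter, with a median length of 983 bases against 1564 bases for the regulatory particle. Other genes in the length range of the core subunits (731 to 1420 bases) had a median of 0.04, and those in the range of the regulatory subunits (1252 to 3256 bases) had -0.25. The part of transcript length in the distance was not tested.

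Among the ATPases, which unfold the substrate and open the gate, Psmc2 alone was higher in the DKO library by counting error, at 78.7 RPKM against 67.7 RPKM in the p53 KO library. Psmc3 was the lowest relative to the p53 KO library, at 77.2 RPKM in the DKO and 131 RPKM in the p53 KO library, a ratio of 0.589 (95% interval 0.560 to 0.620). Psmc5 was at 88.7 and 114 RPKM, Psmc6 at 87.5 and 107 RPKM, Psmc1 at 77.0 and 91.6 RPKM and Psmc4 at 123 and 124 RPKM, with the DKO library first. The 6 ATPase genes had a median log2 difference of -0.27, against -0.24 for all genes, and 5 of them lay below 0 as deposited but only Psmc3 with the gfold constants.

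In the lid, Psmd14 stood lowest. It encodes the metalloprotease that removes ubiquitin chains from the substrate, and it was at 71.6 RPKM in the DKO and 120.1 RPKM in the p53 KO library, a ratio of 0.596 (95% interval 0.564 to 0.629). Psmd12 was also lower, at 71.2 RPKM in the DKO and 90.1 RPKM in the p53 KO library. The other lid genes with Psm names were nearly equal. Shfm1, a lid gene under another name that is given below, had a ratio of 2.85 (95% interval 2.56 to 3.17). Psmd6 was at 152 and 140 RPKM, Psmd7 at 164 and 162 RPKM, Psmd11 at 43.4 and 42.6 RPKM, Psmd13 at 81.2 and 84.2 RPKM, Psmd8 at 65.8 and 68.5 RPKM and Psmd3 at 11.1 and 9.84 RPKM, in the order DKO and p53 KO. Of the base subunits outside the ATPases, the scaffold gene Psmd1 was at 56.2 RPKM in the DKO and 57.5 RPKM in the p53 KO library. The scaffold gene Psmd2 was at 27.4 and 32.6 RPKM, and the ubiquitin receptor gene Psmd4 at 109.9 and 106 RPKM in the same order.

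**Figure D2:**
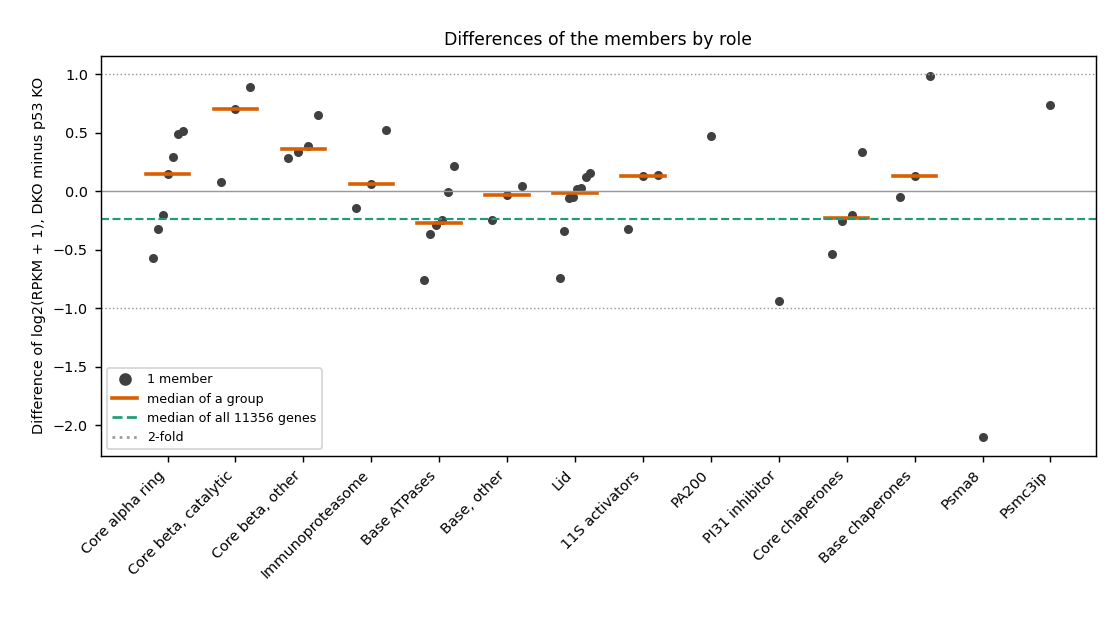
Difference of log2(RPKM + 1), Utx/p53 DKO minus p53 KO, for each of the 48 measured members (points) by role, with the median of each group (short lines), the median of all genes at -0.24 (dashed) and the 2-fold lines (dotted). The 7 constitutive beta genes lie above 0 (4 of them with RPKM scaled to equal sums), 5 of the 6 ATPases below 0 (Psmc3 alone with the gfold constants), and Psma8 alone passes a 2-fold line, at -2.10.

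The immunoproteasome genes were abundant in both libraries, and Psmb8 had the highest level of all members in each. Psmb8, the chymotrypsin-like immunosubunit, was at 464 RPKM (11299 reads) in the DKO library and 511 RPKM (10669 reads) in the p53 KO library, a ratio of 0.908 (95% interval 0.884 to 0.933). Psmb9 was at 64.4 RPKM (1034 reads) in the DKO and 61.7 RPKM (850 reads) in the p53 KO library, a ratio of 1.04 (95% interval 0.952 to 1.14). Psmb10 was at 91.9 RPKM (2325 reads) in the DKO and 63.8 RPKM (1384 reads) in the p53 KO library, a ratio of 1.44 (95% interval 1.35 to 1.54). Thus Psmb8 was slightly lower, Psmb9 about equal and Psmb10 higher in the DKO library, all within 2-fold. The thymus subunit gene Psmb11 had no read in either library, which allows up to 3 reads in each.

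As a set the 3 immunosubunits did not stand apart from the constitutive subunits. Their median log2 difference was 0.06 and lay 0.04 above that of the 31 constitutive subunits. Among those 31, 10 had a lower log2 difference than Psmb8, 17 a lower one than Psmb9 and 28 a lower one than Psmb10. All 3 genes lay within the range of the constitutive subunits, whose log2 differences ran from -0.76 to 0.89. Beside the 7 constitutive beta genes alone, Psmb8 at -0.14 and Psmb9 at 0.06 lay below all of them, Psmb9 just below the lowest, Psmb6 at 0.08. Psmb10, at 0.52, lay within their range.

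Set against the subunit that each replaces, 2 of the 3 immunosubunits made up less in the DKO library. These ratios are taken within a library, so no scaling between libraries enters them. A difference between libraries that goes with transcript length can still enter, as the genes of a pair differ in length. Psmb8 has 1223 bases and Psmb5 871, Psmb10 has 1270 and Psmb7 969, and Psmb9 has 806 and Psmb6 1036. The part of transcript length in these ratios was not tested. Psmb8 was at 3.11 times the level of Psmb5 in the DKO library (95% interval 2.98 to 3.25) and at 5.60 times in the p53 KO library (95% interval 5.29 to 5.93). The DKO ratio was 0.556 of the p53 KO ratio (95% interval 0.518 to 0.597). Psmb10 was at 1.56 times the level of Psmb7 in the DKO library (95% interval 1.45 to 1.68) and at 2.03 times in the p53 KO library (95% interval 1.84 to 2.25), so the DKO ratio was 0.767 of the p53 KO ratio (95% interval 0.676 to 0.869). Psmb9 was at 0.311 of Psmb6 in the DKO and at 0.315 in the p53 KO library, and that quotient of 0.989 had an interval of 0.893 to 1.096 that holds 1. For Psmb5 and Psmb8, which gene differs more between libraries does depend on the scaling. As deposited, Psmb5 had a log2 difference of 0.70 and Psmb8 one of -0.14, and with equal summed RPKM these were 0.33 and -0.51. Psmb7 and Psmb10 had 0.89 and 0.52 as deposited, and 0.52 and 0.15 with equal summed RPKM, so Psmb7 lay farther from 0 under both. Taken over the 6 genes, the immunosubunits made up 59.9% of the summed level in the DKO library and 66.6% in the p53 KO library.

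**Figure D3:**
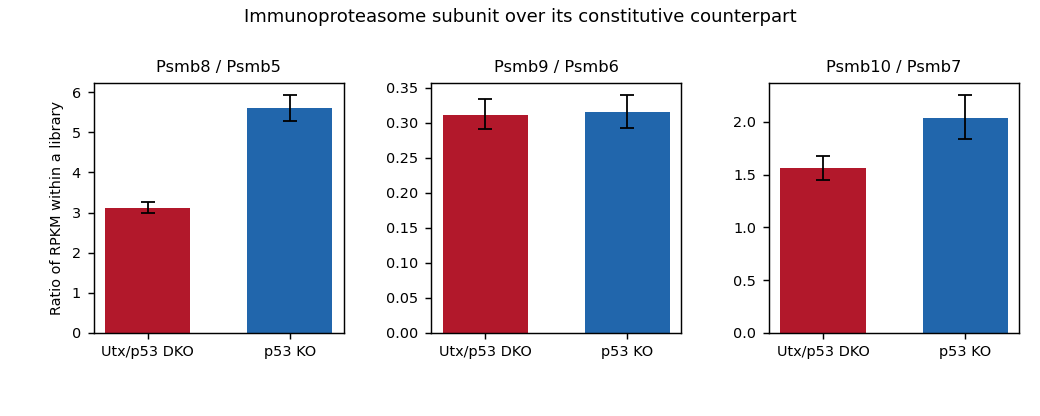
Ratio of the RPKM of each immunoproteasome gene to that of the constitutive gene whose product it replaces, in the Utx/p53 DKO and the p53 KO library (bars from 0, 1 library each, with exact 95% intervals of counting error). The Psmb8 to Psmb5 ratio is 3.11 in the DKO and 5.60 in the p53 KO library, and the Psmb9 to Psmb6 ratio is 0.311 and 0.315.

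The stretches upstream of these catalytic genes are shown because Psmb8 and Psmb5 are the exchange pair that differed most and Psmb9 and Psmb6 the pair that did not. Each is the 250 bases before the RefSeq start on GRCm38.p6, 5′ to 3′ on the gene's strand, whereas the reads were placed on mm9. Capitals mark letters of 3 motifs searched on both strands: TGACNNNGC, the core of the antioxidant response element read by Nfe2l1 and Nfe2l2, a core of interferon regulatory factor sites (GAAA, any 2 bases and GAAA again), and TTCNNNGAA, the core of gamma-activated sites. The windows lie at chr17:34197945-34198194 on the plus strand (Psmb8), chr14:54617996-54618245 on the minus strand (Psmb5), chr17:34187331-34187580 on the minus strand (Psmb9) and chr11:70525107-70525356 on the plus strand (Psmb6).
Psmb8: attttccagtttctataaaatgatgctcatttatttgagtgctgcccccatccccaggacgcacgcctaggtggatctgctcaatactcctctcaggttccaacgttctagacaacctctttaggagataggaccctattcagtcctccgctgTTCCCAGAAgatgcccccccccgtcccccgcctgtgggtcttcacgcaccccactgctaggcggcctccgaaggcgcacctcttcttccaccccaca
Psmb5: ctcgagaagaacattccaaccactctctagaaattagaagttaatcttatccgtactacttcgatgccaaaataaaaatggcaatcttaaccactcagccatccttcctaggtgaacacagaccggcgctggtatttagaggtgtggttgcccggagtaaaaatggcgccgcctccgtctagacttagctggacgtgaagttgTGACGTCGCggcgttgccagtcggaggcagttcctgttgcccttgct
Psmb9: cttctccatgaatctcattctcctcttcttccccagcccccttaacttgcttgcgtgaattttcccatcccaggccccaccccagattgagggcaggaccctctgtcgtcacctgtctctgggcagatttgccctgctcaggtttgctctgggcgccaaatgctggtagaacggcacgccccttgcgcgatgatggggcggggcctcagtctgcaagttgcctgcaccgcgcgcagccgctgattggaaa
Psmb6: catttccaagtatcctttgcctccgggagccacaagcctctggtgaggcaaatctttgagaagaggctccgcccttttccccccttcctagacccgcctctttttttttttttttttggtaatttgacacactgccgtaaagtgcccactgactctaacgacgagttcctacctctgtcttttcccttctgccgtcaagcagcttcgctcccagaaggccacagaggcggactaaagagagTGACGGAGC
Psmb5 holds the antioxidant element letters from position -47 and Psmb6 from position -9, counted back from -1 just before the start. Psmb8 holds the gamma-activated site letters from position -97, and the Psmb9 stretch holds none of the 3.

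In windows of 300 bases (250 before to 50 after the start), which RefSeq gave for 40 of the 48 members other than Psmc3ip, the antioxidant element letters stood in 6 (15%), against 14.0% of 27025 genes and 17.2% of the 7924 measured ones. The interferon regulatory factor letters stood in 5 (12.5%), against 3.99% and 4.04%, and the gamma-activated site letters in 3 (7.5%), against 9.55% and 8.64% of the same genes. Members with the interferon regulatory factor letters were Psmb3, Psmd4, Psmd9, Psme1 and Psmg4, none of them an immunosubunit. The 6 measured members with the antioxidant element letters had a median log2 difference of 0.10 and the other 33 one of -0.01. For the interferon regulatory factor letters the medians were 0.05 with (5 members) and 0.01 without (34), and for the gamma-activated site letters -0.21 with (3) and 0.05 without (36). A match of letters is a description of these windows and no evidence of binding.

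The Psmb9 window overlaps that of Tap1 over 275 of 300 bases, as the genes start 225 bases apart and are read in opposite directions. Tap1 encodes a subunit of the transporter that carries proteasome peptides into the endoplasmic reticulum. It was at 23.6 RPKM in the DKO library and 29.6 RPKM in the p53 KO library, a ratio of 0.797 (95% interval 0.740 to 0.859), while Psmb9 was about equal. The Psmb9 to Tap1 ratio within a library was 2.73 in the DKO and 2.09 in the p53 KO library (quotient 1.31, 95% interval 1.16 to 1.47). The Tap1 transcript is longer, at 2866 bases against 806 for Psmb9, and the part of transcript length was not tested.

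Of the activators that bind the ends of the barrel, Psme1 was slightly lower and Psme4 higher in the DKO library. Psme1 encodes the alpha subunit of the interferon-inducible activator and was at 169 RPKM in the DKO and 212 RPKM in the p53 KO library, a ratio of 0.799 (95% interval 0.762 to 0.838). Psme2, the gene of its partner subunit, was at only 5.35 RPKM (85 reads) in the DKO and 4.77 RPKM (65 reads) in the p53 KO library. RefSeq lists a near-identical copy, Psme2b, so reads of Psme2 may have been lost or shared and its level is uncertain. Psme3, the gene of the nuclear activator, was at 26.3 RPKM in the DKO and 23.9 RPKM in the p53 KO library. Psme4, which encodes the large activator known for acetylated histones, was at 7.60 RPKM in the DKO and 5.19 RPKM in the p53 KO library, a ratio of 1.46 (95% interval 1.32 to 1.63).

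Just short of the 2-fold rule stood Psmf1 and Psmd5. Psmf1, known as an inhibitor of the core particle in cell-free assays, was at 6.56 RPKM (463 reads) in the DKO and 13.5 RPKM (816 reads) in the p53 KO library. Its ratio was 0.487 (95% interval 0.433 to 0.546). Its log2 difference was -0.94, and -1.03 with a pseudocount of 0.1 RPKM in place of 1 RPKM. Psmd5, a chaperone that holds base ATPases during assembly, was at 16.4 RPKM (669 reads) in the DKO and 7.82 RPKM (273 reads) in the p53 KO library. Its ratio was 2.102 (95% interval 1.82 to 2.43), and its log2 difference of 0.98 fell short of 1 because of the pseudocount of 1 RPKM. Psmd5 and Psmb7 were the 2 members at least 2-fold above the all-gene median, as 9.63% of all genes were, and Psma8 the 1 at least 2-fold below it, as 8.76% were.

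The other assembly chaperones differed less. For the base, Psmd9 was at 11.3 RPKM in the DKO and 10.2 RPKM in the p53 KO library, and Psmd10 (gankyrin) at 42.6 and 44.1 RPKM in the same order. For the core particle, whose alpha ring Psmg proteins help to build, Psmg2 was at 46.5 RPKM in the DKO and 67.9 RPKM in the p53 KO library, a ratio of 0.685 (95% interval 0.629 to 0.745). Psmg3 was the one of the 4 that was higher, at 28.7 RPKM in the DKO and 22.6 RPKM in the p53 KO library. Psmg1 was at 37.3 and 43.2 RPKM and Psmg4 at 15.6 and 18.9 RPKM, again with the DKO library first. Psmc3ip was at 29.1 RPKM in the DKO and 17.1 RPKM in the p53 KO library, a ratio of 1.70 (95% interval 1.47 to 1.98).

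The genes that work with the proteasome but carry other names were counted next, in a list of 30 of which 29 were found and measured. Of these 2 were at least 2-fold higher in the DKO library and 0 at least 2-fold lower, against 6.60% and 13.5% of all genes, and the median log2 difference was -0.12. Shfm1, which encodes the small lid subunit Sem1, was at 152 RPKM in the DKO and 53.4 RPKM in the p53 KO library, a ratio of 2.85 (95% interval 2.56 to 3.17). The polyubiquitin gene Ubb was at 6212 RPKM in the DKO and 5344 RPKM in the p53 KO library. Genes that encode ubiquitin share coding sequence, so its reads are uncertain.

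Of the other genes of the list, those that assemble, bind or regulate the proteasome are given first, none of them past 2-fold. Pomp, the maturation chaperone of the core particle, was at 136 RPKM in the DKO and 155 RPKM in the p53 KO library. Adrm1, a ubiquitin receptor of the base, was at 6.00 and 7.70 RPKM in the same order. Nfe2l1, the transcription factor that raises proteasome genes when the proteasome is inhibited, was at 5.80 RPKM in the DKO and 8.67 RPKM in the p53 KO library, a ratio of 0.669 (95% interval 0.586 to 0.763). Its relative Nfe2l2 was at 37.0 RPKM in the DKO and 48.4 RPKM in the p53 KO library. The segregase gene Vcp, at 41.4 and 43.8 RPKM, and the deubiquitinase gene Uchl5, at 131 and 135 RPKM in the same order, were close to equal. The Vcp cofactor gene Nploc4 was higher, at 8.57 RPKM in the DKO and 5.55 RPKM in the p53 KO library, a ratio of 1.55 (95% interval 1.37 to 1.74). Ubxn1 was at 64.0 RPKM in the DKO and 46.6 RPKM in the p53 KO library, a ratio of 1.37 (95% interval 1.26 to 1.499).

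The class I antigen presentation list, the pathway that uses immunoproteasome peptides, went both ways. Of its 27 genes 26 were found and measured. Ifngr1 and Calr were at least 2-fold higher, against 6.60% of all genes, and Irf1 and Tap2 at least 2-fold lower, against 13.5%. The median log2 difference was -0.09. Tap2, the partner of Tap1, was at 9.90 RPKM in the DKO and 23.7 RPKM in the p53 KO library, a ratio of 0.418 (95% interval 0.374 to 0.466). Irf1, a transcription factor known to bind the promoter of Psmb9 and Tap1, was at 28.2 RPKM in the DKO and 67.6 RPKM in the p53 KO library, with a ratio of 0.418 (95% interval 0.390 to 0.448). Beside this Irf1 level, Psmb9 had a ratio of 1.04 and Tap1 one of 0.797. A link between the levels of these genes was not tested. Relative to the median of all genes, Irf1 and Tap2 lay at -0.99 and -0.94, short of 2-fold.

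Upstream of Irf1, the interferon gamma receptor gene Ifngr1 was at 404 RPKM in the DKO and 85.9 RPKM in the p53 KO library, a ratio of 4.71 (95% interval 4.53 to 4.89). Nlrc5, the class I transactivator, was close to equal, at 4.94 RPKM in the DKO and 4.62 RPKM in the p53 KO library. Among the loading genes, the chaperone gene Calr was at 673 RPKM in the DKO and 259 RPKM in the p53 KO library, and the trimming peptidase gene Erap1 at 9.39 and 16.3 RPKM. B2m, the light chain, was at 1359 RPKM in the DKO and 1716 RPKM in the p53 KO library. H2-K1 was at 596 and 1044 RPKM and H2-D1 at 324 and 179 RPKM in the same order, and as class I heavy chain genes share long stretches their reads are uncertain.

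**Figure D4:**
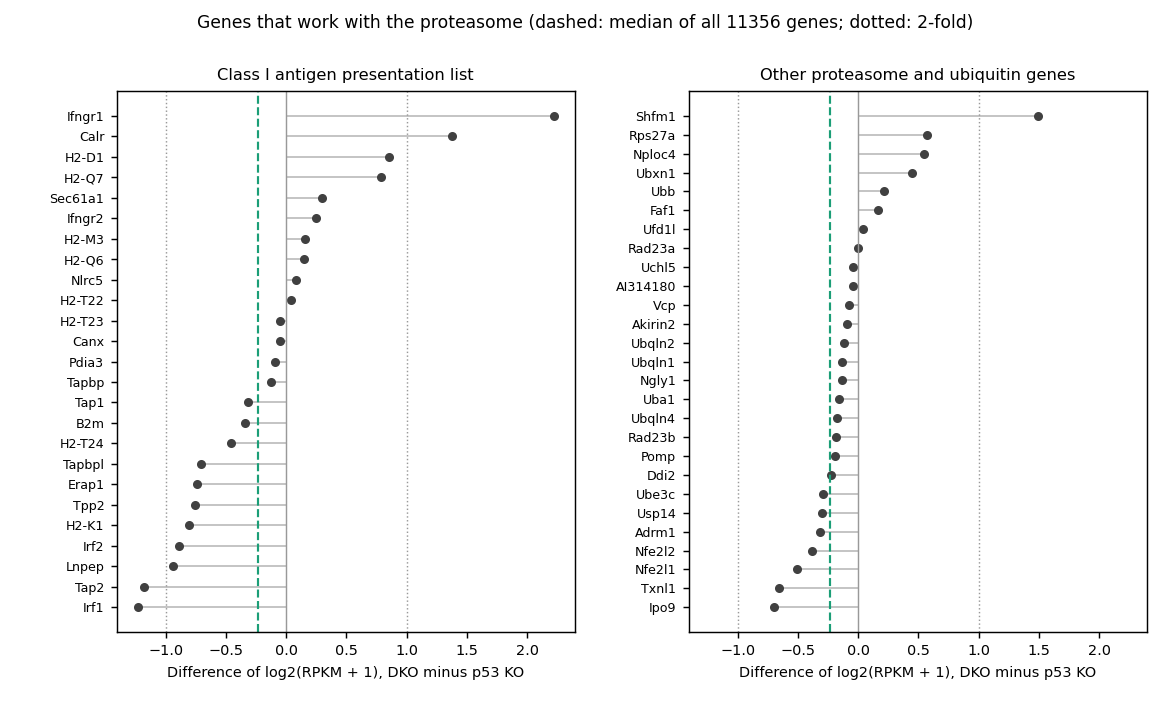
Difference of log2(RPKM + 1), Utx/p53 DKO minus p53 KO, for 25 of the 26 measured genes of the class I antigen presentation list (left) and 27 of the 29 other proteasome and ubiquitin genes (right), 1 point per gene. Ifngr1 at 2.22, Calr at 1.38 and Shfm1 at 1.49 lie beyond the upper 2-fold line, and Irf1 at -1.23 and Tap2 at -1.18 beyond the lower one.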

How the data were processed

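Both libraries were LSK cells, 1 per genotype by the labels, and cDNA was made and amplified with a SMART kit from oligo-dT purified RNA, per the labels' protocols. TopHat2 2.1.0, bcl2fastq 1.8.4 and build mm9 are named in the submitters' processing notes. The authors deposited RPKM values of 28344 RefSeq transcripts from gfold 1.1.4, per the file headers, with normalization constants of 1.30144 (p53 KO) and 1 (DKO) that are not applied to the RPKM. The authors' deposited table also holds a log2 fold change, the GFOLD value and a q-value (E-FDR) that was 1 for all transcripts. Columns follow the order of libraries in the header. The depth was 19926294 reads in the DKO and 17088105 reads in the p53 KO library.

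Differences are of log2(RPKM + 1), a scale that shrinks those of low genes, for genes that averaged 1 RPKM or more. Higher or lower calls needed 2-fold. Whole reads were recovered from both RPKM values and the fold change by searching transcript lengths up to 30000 bases. This gave 1 solution, or a shortest one with the next at least 3 times as long, for 97.5% of 24644 transcripts. On 1957 transcripts simulated from resolved ones with the same formulas, 98.5% were resolved, all of them rightly. This covers neither the unresolved transcripts nor whether the deposited values follow these formulas. Reads gave exact (Clopper-Pearson) 95% intervals of ratios, and an exact conditional interval for a quotient of ratios. No count test was run, since it would compare 2 libraries and not genotypes. PCR copies without molecular identifiers are not independent molecules. Strand use and the treatment of reads that match several genes are not stated there. The members, lists and genes to name (all measured members and list genes) were chosen with earlier results of these data known. Of the list genes, 3 are not reported here by name. Alternatives covered the pseudocount, filter, scaling, transcript, fold rule and Psmc3ip. Python 3.11.15, pandas 2.3.3 and scipy 1.17.1 were used.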

Additional observations from a re-analysis of the deposited data

How the results depend on the processing

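No paired analysis was possible because each genotype has 1 library. The count of members at least 2-fold higher was 0 as reported, 1 with a pseudocount of 0.1 RPKM, 2 with equal upper quartiles, 2 after centring on genes that averaged 5 RPKM or more, 2 relative to the all-gene median, 5 with a 1.5-fold rule and 9 with the authors' gfold constants. The count at least 2-fold lower was 1 as reported, 2 with a pseudocount of 0.1 RPKM, 0 with a filter at a mean of 5 RPKM, 4 with equal summed RPKM and 4 with a 1.5-fold rule. The members' median log2 difference was 0.04 as reported, 0.19 with equal upper quartiles, -0.33 with equal sums, 0.22 with the centring and 0.63 with the gfold constants. Relative to all genes it was 0.27 as reported and 0.14 with no filter. For the constitutive subunits that relative median was 0.26 as reported, 0.18 with a pseudocount of 5 RPKM and 0.14 with no filter. For Psmb8, Psmb9 and Psmb10 it was 0.30 as reported and 0.17 with no filter. The median distance between these 3 and the constitutive subunits, 0.04 as reported, moved by less than the median counting interval of its genes. Scaling enters it only through the pseudocount and no filter removes its genes, so that is no check. The relative medians of both other lists went with no filter from 0.12 to -0.01 (proteasome and ubiquitin genes) and from 0.15 to 0.03 (class I). The counting interval of a single gene is not the uncertainty of a list median. These moves were within the median of such single-gene intervals, as were those under all alternatives run. These alternatives moved the all-gene median by 0.13 (upper quartiles), -0.31 (equal sums), 0.18 (centring), 0.52 (gfold constants) and 0.12 (no filter). No difference of a named gene past 2-fold changed sign. Using the sum of all transcripts or the lowest one moved none of the 69 named genes beyond its counting interval. Only 4 of the 49 members had more than 1 transcript, so for the other members that outcome was fixed in advance. Psme2, with 85 and 65 reads in the DKO and p53 KO libraries, is the measured subunit that counting error limits most beside Psma8.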
